A study of Mus musculus with 4 samples.

Results

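The 9 complement genes examined here are C1qa, C1qb, C1qc, C3, Cfb, Cfp, C3ar1, C5ar1 and Serping1. They were chosen by symbol, all 9 were among the 12584 genes of the deposited table, and each was followed across the authors' cell classes and across the 4 libraries. The study asked how prostaglandin synthesis and the interferon response of resistant melanoma shape the immune cells around transferred T cells. For this, live CD45+ cells were sorted from YUMM1.7OVA RTT tumours, a mouse melanoma line that carries ovalbumin and has become resistant to targeted therapy, grown in Rag2-/- mice, which have no T or B cells of their own. All mice received ovalbumin-specific OT-1 CD8+ T cells by adoptive transfer (ACT) on day 7, and tumours were taken on day 10, 72 h later. Each library pooled 3 tumours, and there was 1 library per group. The 4 groups were tumours of the line with an mCherry control vector (CTRL), tumours whose cancer cells overexpressed the interferon regulatory factors IRF3 and IRF7 (IRF3/7), mCherry tumours given the COX2 inhibitor celecoxib (COX2i), and mCherry tumours given celecoxib together with the DNA methyltransferase inhibitor 5-azacytidine (COX2i + 5-AZA). In the IRF3/7 group the cancer cells, not the immune cells that were sorted, carried the transgene.

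Complement is a chain of blood proteins that marks and opens target cells. C1q, built from the chains encoded by C1qa, C1qb and C1qc, binds antibodies, dying cells and other surfaces and starts the classical pathway. C3 is the protein on which all pathways meet. Factor B (Cfb) supplies the catalytic part of the alternative pathway's C3 convertase, and properdin (Cfp) steadies that enzyme. C3ar1 and C5ar1 are the receptors for the small fragments C3a and C5a, and Serping1 encodes the C1 inhibitor, which blocks the proteases of C1. The liver makes most plasma complement, but C1q and properdin come largely from myeloid cells, and macrophages in tissues are a main source of C1q. All 3 genes of the hepatocyte list used as a check (Alb, Apoa1, Ttr) were outside the gene table used here.

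The libraries held 8953 cells (CTRL), 6329 cells (IRF3/7), 9133 cells (COX2i) and 10032 cells (COX2i + 5-AZA), with totals between 26356819 and 78722763 unique molecular identifiers (UMIs). IRF3/7 was the shallowest, at a median of 3168 UMIs per cell against 6039.5 to 7502 in the others. Levels are given as CPM, the UMIs of a gene summed over the cells of a class for every 1000000 UMIs of those cells, and differences as log2 ratios of CPM. Because there was 1 library per group, no difference between groups could be tested, and the 95% intervals (exact Poisson for levels, exact conditional for ratios, Clopper-Pearson for shares) describe counting error alone and say nothing of how tumours vary. Each count of genes uses a 2-fold rule, applied where the 2 libraries compared had 20 or more UMIs of the gene in sum, and is read beside the share of all such genes past the same fold. Of the cells, 10018 carried a droplet barcode that also occurred in another library, as multiplexing by probe barcode allows, and 0 shared a full barcode.

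Monocytes and macrophages made up 83.7% of all cells, but the mix differed greatly between libraries. The classes Infl_Mono (inflammatory monocytes), Monocyte_1 and Monocyte_3, summed as monocytes, held 139, 4596, 558 and 4684 cells in CTRL, IRF3/7, COX2i and COX2i + 5-AZA. The macrophage classes (TAM_C1q, TAM_Spp1, TAM_cycling, TAM_H2Ab1, Ctsk_Macro and Macro, where TAM is tumour-associated macrophage) held 7475, 439, 6820 and 4117 cells. Of the 439 IRF3/7 macrophages, 385 were TAM_H2Ab1, a class with 19 cells in CTRL. CTRL cells named monocytes went against that name in part. All 8 macrophage markers were detected in them at a summed 34082 CPM, against 6751 to 11749 CPM in the monocytes of the other libraries, and the monocyte markers (4 of 5 in the table) reached 5190 CPM against 6004 to 15139 CPM. Macrophage markers also reached 30689 CPM in the 65 CTRL cells named Neutro, beside 25584 CPM of neutrophil markers, against 3317 and 94138 CPM in COX2i + 5-AZA. Values for CTRL monocytes and CTRL neutrophils below carry that limit.

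The C1q genes lie side by side on the minus strand of mouse chromosome 4 (GRCm38), in the order C1qb (136880129 to 136886187), C1qc (136889804 to 136893065) and C1qa (136895917 to 136898803), within 18675 bases. C3 (chromosome 17, 57203970 to 57228136) and Cfb (chromosome 17, 34856374 to 34862518) are on another chromosome, and Cfb lies 85 bases from C2, its counterpart in the classical pathway. The promoter sequences of C1qb, C1qc and C3 are shown because the levels of C1qb and C1qc went together across cell classes (Pearson's r = 0.99 over 40 class sums) and C3 did not follow C1q (r = 0.31 with C1qa). They are the 250 bases before the RefSeq start (GRCm38.p6, minus strand, read 5′ to 3′), at chr4:136886201-136886450, chr4:136892915-136893164 and chr17:57228137-57228386, and that of C1qc overlaps the longer C1qc gene model given above. Capitals mark matches, on either strand, to the letters searched for, which were GAAA, any 2 bases and GAAA (ISRE, interferon response), TTCNNNGAA (GAS, STAT factors), GAGGAAGT (PU.1, a myeloid factor), TTNNGNAA (C/EBP factors) and GGGA, any 2 bases and TTCC (NF-kB).
C1qb: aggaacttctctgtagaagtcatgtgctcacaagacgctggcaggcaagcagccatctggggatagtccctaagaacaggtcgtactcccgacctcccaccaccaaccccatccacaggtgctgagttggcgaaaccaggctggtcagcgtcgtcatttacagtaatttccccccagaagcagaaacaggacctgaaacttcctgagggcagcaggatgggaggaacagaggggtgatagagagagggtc
C1qc: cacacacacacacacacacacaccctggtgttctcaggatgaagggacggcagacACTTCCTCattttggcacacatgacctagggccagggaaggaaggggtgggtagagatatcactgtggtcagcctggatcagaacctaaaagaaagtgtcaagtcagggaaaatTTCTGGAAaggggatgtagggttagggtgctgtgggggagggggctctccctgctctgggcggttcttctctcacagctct
C3: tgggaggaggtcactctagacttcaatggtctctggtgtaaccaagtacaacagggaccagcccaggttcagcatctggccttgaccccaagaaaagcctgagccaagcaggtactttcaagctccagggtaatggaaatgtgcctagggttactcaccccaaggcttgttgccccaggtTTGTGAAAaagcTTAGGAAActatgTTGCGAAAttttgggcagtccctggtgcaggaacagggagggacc
C1qb held no match. C1qc held 1 PU.1 match, beginning 195 bases before the start, and 1 C/EBP match, at 81 bases. C3 held 3 C/EBP matches, at 70, 58 and 45 bases, with no overlap between them. A match to the C/EBP letters is common, in 36.8% of 32851 promoter windows of the same length, but 3 or more were found in 2.61%, and the PU.1 letters in 2.44%. Windows were given for 6 of the 9 members. C5ar1 held 1 C/EBP match, at 157 bases, and C3ar1 and Cfp none. The ISRE, GAS and NF-kB letters, found in 2.98%, 7.02% and 1.21% of all windows, were in none of the 6. A match in letters is not a bound site.

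With the 4 libraries pooled, macrophages carried most C1q transcripts, monocytes most C3 and Cfb transcripts, and non-immune cells most Serping1 transcripts. Over the 4 libraries 98.3% of C1qa UMIs, 95.3% of C3 UMIs and 95.9% of Cfb UMIs were in monocytes and macrophages together. For C1qa the macrophage classes held 89.3%, whereas for C3 and Cfb the monocyte classes held 66.1% and 68.5%. Within libraries this followed the cell mix, as monocytes held 51.8% of C1qa UMIs in IRF3/7, while macrophages held 84.6% of C3 and 82.6% of Cfb UMIs in CTRL and 56.6% and 59.2% in COX2i. The receptors resembled C1q in the pooled shares, with 81.1% of C3ar1 and 84.4% of C5ar1 UMIs in macrophages. Cfp was spread more widely, with 75.9% in macrophages and 89.8% in monocytes and macrophages together. Serping1 had few UMIs in the whole table, and 82.0% of them (868) were in Myofibrobl, the non-immune cells left after the sort. Since the classes were made by the authors from clusters of expression, C1q chains among the genes clustered, levels between classes are a description.

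**Figure D1:**
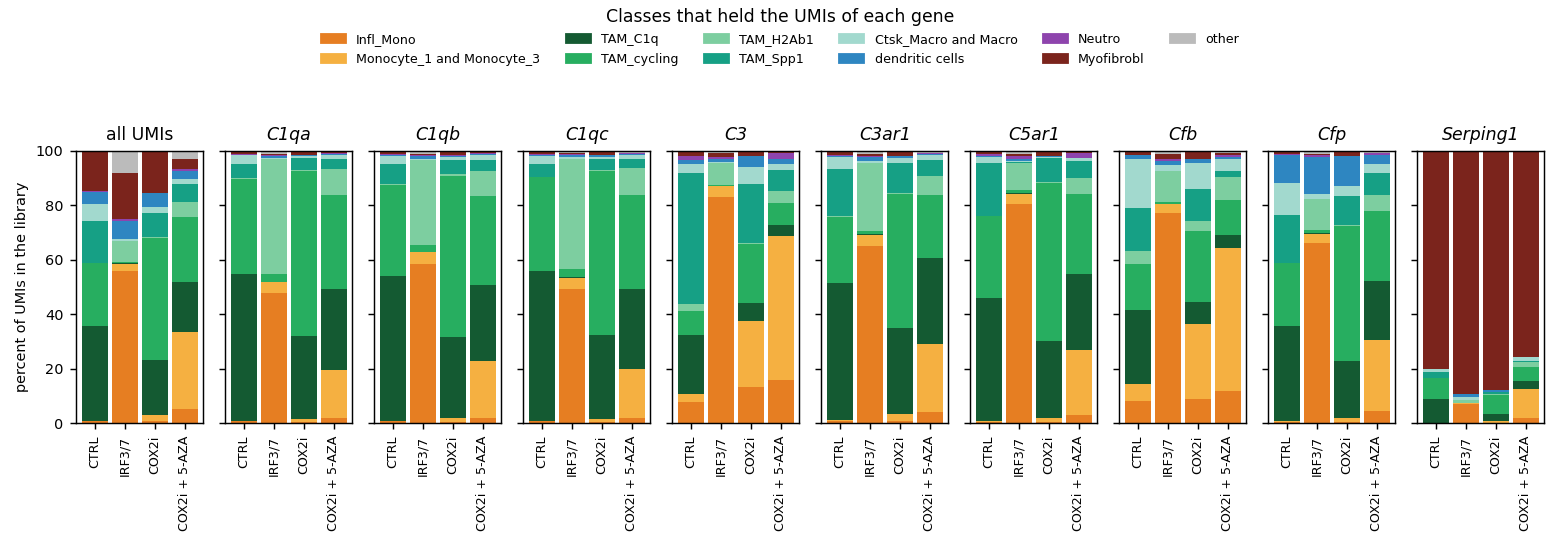
Share of each member's UMIs held by the cell classes, in percent, for each of the 4 libraries, with the share of all UMIs beside them. The monocyte classes held 87.2% of C3 UMIs and 80.7% of Cfb UMIs in IRF3/7, against 10.7% of C3 UMIs in CTRL, and Serping1 UMIs sat mostly in Myofibrobl in every library.

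The C1q chains shared their top 3 classes. C1qa was highest in TAM_H2Ab1 (8274 CPM over the 4 libraries), then in TAM_C1q (7943 CPM) and TAM_cycling (7025 CPM), and these steps were beyond counting error. C1qb followed the same order at 6488, 5916 and 5413 CPM, and C1qc at 2872, 2731 and 2385 CPM. The order is a pooled one, and most TAM_H2Ab1 cells were from IRF3/7 and COX2i + 5-AZA. In COX2i it turned, with C1qa at 5490 CPM in the 41 TAM_H2Ab1 cells and 7245 CPM in TAM_C1q. TAM_Spp1 and Ctsk_Macro were the macrophage classes with little C1q, at 1947 to 2569 CPM of C1qa in TAM_Spp1 and 1088 to 2064 CPM in Ctsk_Macro where a library had at least 50 cells. In single cells thinned to 2000 UMIs, which leaves out cells below that depth, TAM_C1q cells carried a median of 31 to 34 C1q UMIs. TAM_Spp1 cells carried a median of 2 (CTRL) to 6 (COX2i + 5-AZA) and Infl_Mono cells of IRF3/7 a median of 0, with a 90th percentile of 25. NK cells, which should lack C1q, held C1qa at 206 CPM in IRF3/7, 611 CPM in COX2i and 1041 CPM in COX2i + 5-AZA. After thinning, 12.7%, 35.5% and 37.5% of NK cells had a C1qa UMI, at median depths of 2674.5, 3099 and 2606 UMIs before thinning, against 33.6% of Infl_Mono cells in IRF3/7 (median 3076 UMIs) and 42.6% in COX2i + 5-AZA (median 4521.5 UMIs). The share in COX2i + 5-AZA Infl_Mono cells is thus close to that of NK cells in its own library and is not read as expression by itself.

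**Figure D2:**
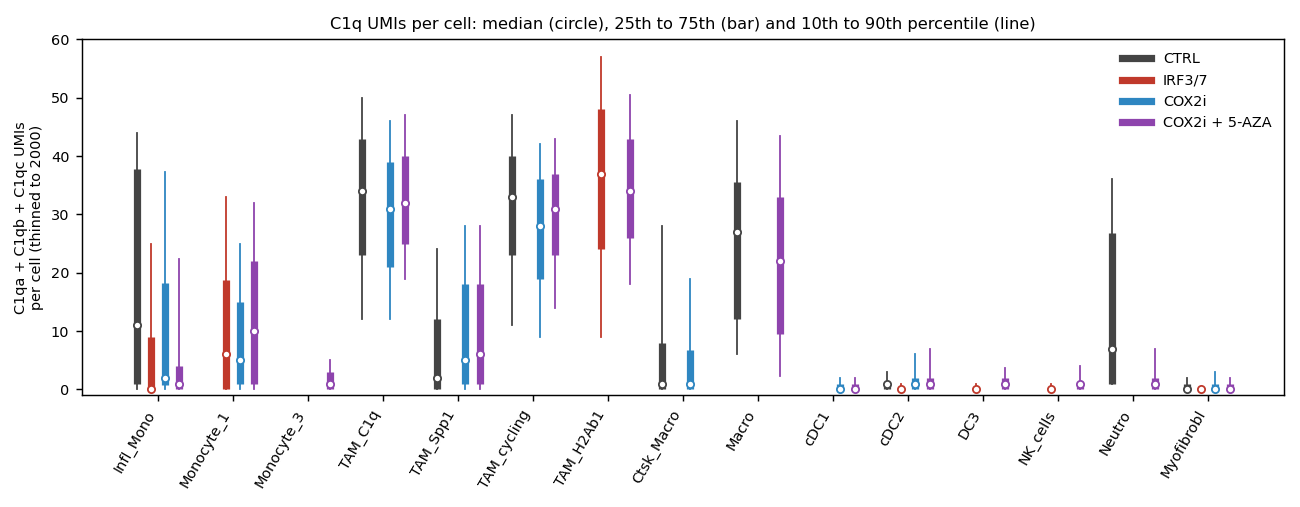
C1qa, C1qb and C1qc UMIs per cell thinned to 2000 UMIs, by class and library, with the median as a circle, the 25th to 75th percentile as a bar and the 10th to 90th percentile as a line. TAM_C1q, TAM_cycling and TAM_H2Ab1 cells carried medians of 28 to 37 UMIs, while medians in TAM_Spp1, Ctsk_Macro and the monocyte classes lay between 0 and 11.

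The mix of the 3 chains differed between groups of cells. In macrophages C1qb made up 34.4% of C1q UMIs in CTRL, 36.5% in IRF3/7, 38.1% in COX2i and 37.0% in COX2i + 5-AZA. In monocytes it made up 35.9% in CTRL, 47.7% (47.3 to 48.1) in IRF3/7, 43.2% in COX2i and 41.8% in COX2i + 5-AZA. C1qb thus took a larger share in monocytes than in macrophages as a whole in each library, and the gap was widest in IRF3/7, where C1qa made up 39.4% of C1q UMIs in monocytes and 48.6% in macrophages. The macrophage classes were not alike, as C1qb made up 42.2%, 44.2% and 41.6% in TAM_Spp1 of CTRL, COX2i and COX2i + 5-AZA. In TAM_C1q of those libraries it made up 34.0%, 37.6% and 36.4%. A larger C1qb share was thus not particular to monocytes. From 5 to 9 C1q UMIs per cell upward, the share of C1qb was lower with more C1q in monocytes and macrophages of the libraries with enough cells. The order did not hold below that, since COX2i monocytes had 46.7% at 1 to 4 UMIs and 61.1% at 5 to 9, and COX2i + 5-AZA monocytes 48.1% and 52.3%. It did not hold in the other classes of COX2i + 5-AZA, at 36.2%, 38.1%, 42.8% and 40.4% from the lowest to the highest range. IRF3/7 monocytes with 1 to 4 C1q UMIs after thinning had 65.6% C1qb (62.7 to 68.3, 659 cells) and those with 5 to 9 had 64.3% (267 cells). At 10 to 19 UMIs the share was 50.6%, at 20 to 39 it was 44.8%, and at 40 or more it was 41.5%. CTRL macrophages showed the same order from 5 to 9 UMIs upward, at 48.1%, 40.8%, 35.7% and 33.6%, but had 41.3% at 1 to 4 UMIs. NK cells of IRF3/7 had 45.3% C1qb (42.1 to 48.5), and those of COX2i + 5-AZA 38.4%. The 65.6% of low-C1q monocytes in IRF3/7 lay outside the interval for its NK cells. That NK interval covers cells of any C1q level without thinning, so the measures are unlike. Cells of the other classes of that library with 1 to 4 C1q UMIs had 49.3%. At 5 to 9 UMIs those other classes had 59.7% (51.1 to 67.9, 22 cells), which overlapped the 64.3% of monocytes. The part of free RNA in the mix was not tested. Nothing here shows C1q protein, which needs all 3 chains.

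The other members had orders of their own. C3, over the 4 libraries, was highest in Monocyte_3 (579 CPM), Infl_Mono (499 CPM) and Monocyte_1 (384 CPM), and the interval of Monocyte_1 overlapped that of Neutro (371 CPM). Of the 326 Monocyte_3 cells 280 were from COX2i + 5-AZA, and in that library C3 stood at 615 CPM in Monocyte_3 and 658 CPM in Infl_Mono, which also came first after thinning, so the pooled lead of Monocyte_3 does not hold within the library. Cfb, pooled, was highest in Infl_Mono (1077 CPM), TAM_H2Ab1 (734 CPM) and Macro (681 CPM), but 4335 of the 5322 Infl_Mono cells were from IRF3/7. Within libraries Infl_Mono did not lead, since Cfb stood at 1324 CPM in TAM_H2Ab1 and 1220 CPM in Infl_Mono of IRF3/7, and at 768 CPM in Macro and 731 CPM in Infl_Mono of COX2i + 5-AZA, the last pair within counting error. Cfp, by contrast, was led by cDC2 (2173 CPM), the conventional dendritic cells type 2, ahead of Macro (1859 CPM) and Ctsk_Macro (1855 CPM), whose intervals overlapped, but in COX2i + 5-AZA Macro stood at 1719 CPM and cDC2 at 1419 CPM. C3ar1, pooled, was highest in TAM_H2Ab1 (873 CPM) and TAM_C1q (833 CPM), but in COX2i + 5-AZA TAM_H2Ab1 stood at 652 CPM, below the 902 CPM of TAM_C1q. C5ar1 stood at 904 CPM in TAM_C1q and 898 CPM in Neutro, which did not differ beyond counting error. Serping1 was at 30.3 CPM in Myofibrobl and at 3.56 CPM or less elsewhere.

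**Figure D3:**
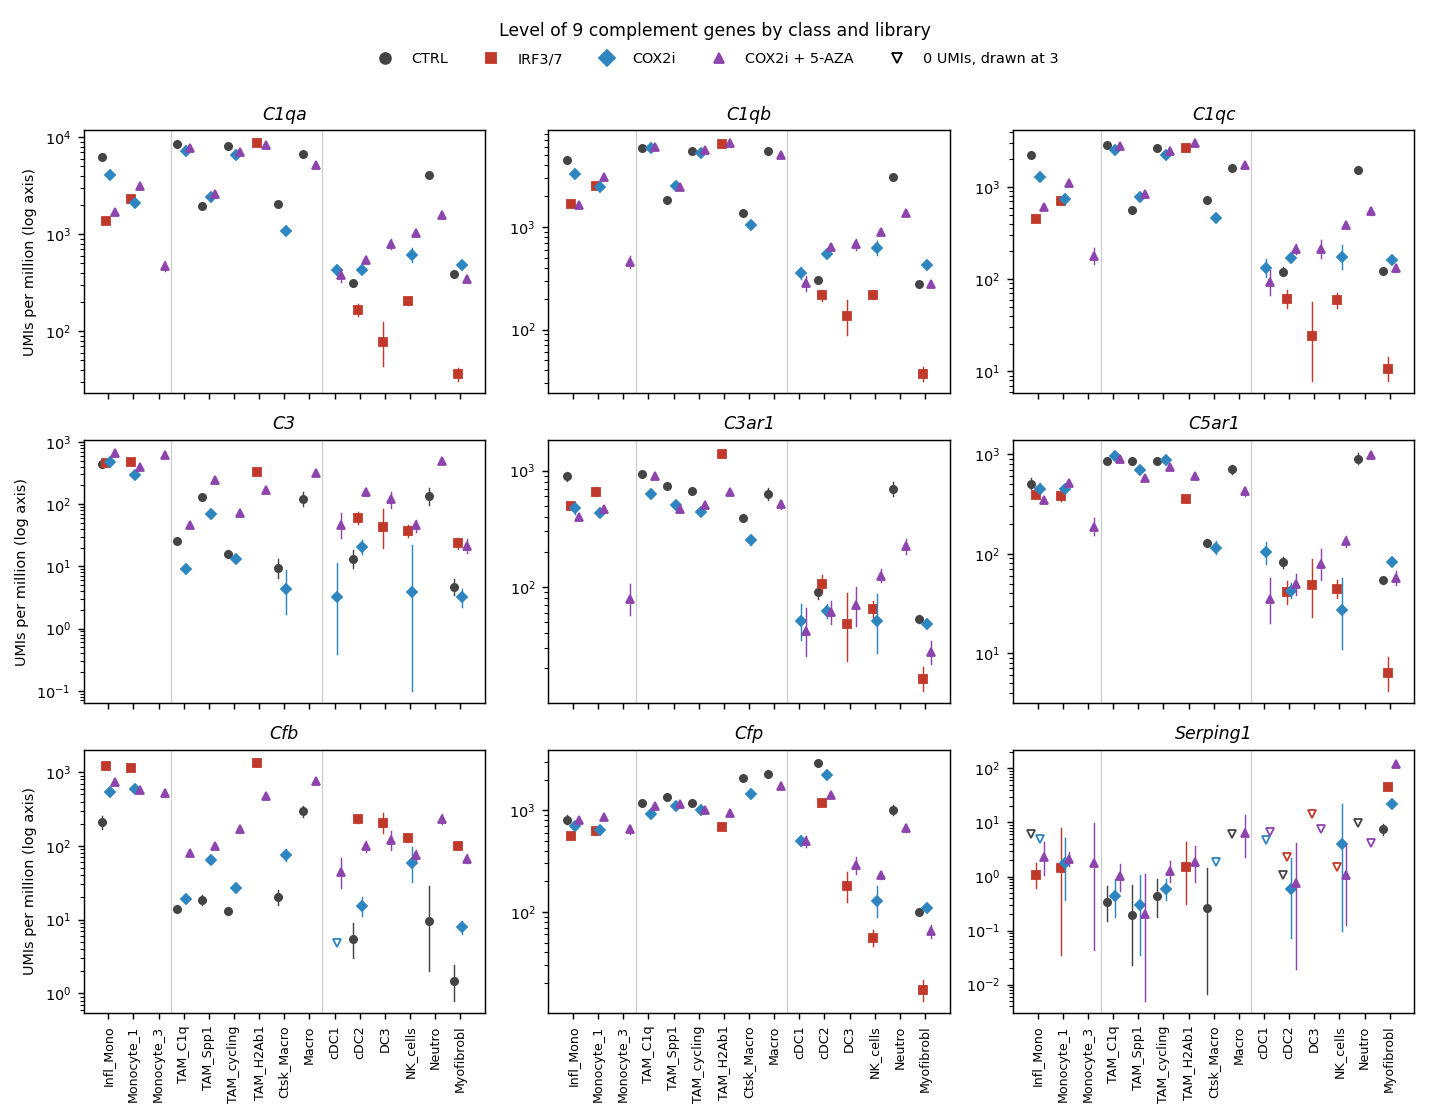
Level of the 9 members in CPM, on a log axis, in 15 cell classes and 4 libraries, with exact Poisson 95% intervals as lines and open triangles for classes at 0 UMIs, drawn at the level of 3 UMIs. C1q chains were highest in TAM classes and Serping1 in Myofibrobl in each library, whereas the class with most Cfb or Cfp differed between libraries.

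Genes whose level across 40 class sums (class and library pairs with at least 50 cells) was most like a member's were picked by Pearson's r of log2(CPM + 1), as a description only, since the sums share libraries and classes. C1qa was most like Selenop (r = 0.95), Adgre1, the gene of the macrophage antigen F4/80 (0.94), and Ms4a7 (0.93), and C1qc went with the same 3 genes. C1qb went with Adgre1 (0.95), Selenop (0.94) and Snx2 (0.92). C3ar1 went with Adgre1 (0.95) and Tmem104 (0.93), and C5ar1 with the scavenger receptor Msr1 (0.95), Cd93 (0.94) and Adgre1 (0.94). C3 was most like Fpr2, a formyl peptide receptor (0.93), Il27 (0.90) and N4bp1 (0.90). Cfb was most like the guanylate-binding proteins Gbp9 (0.92) and Gbp6 (0.88) and Rtp4 (0.90), which are known interferon-induced genes. Cfp went with Cd200r1 (0.91), Man2b1 (0.90) and Lmo2 (0.90), and Serping1 with Medag (0.89), Il17rc (0.89) and Rarres2 (0.88). Among members, C1qa had r = 0.91 with C3ar1 and 0.90 with C5ar1, C3 had r = 0.80 with Cfb, and C1qa had r = 0.19 with Cfb.

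The first comparison asked what forced IRF3/7 expression in the cancer cells does to the immune cells. In monocytes and macrophages together Cfb, C3 and Serping1 were higher in IRF3/7 than in CTRL and C1qa, C1qb, C1qc, C5ar1 and Cfp were lower. Thus 3 of 9 members were at least 2-fold higher, against 9.16% of the 11793 genes tested, and 5 of 9 were at least 2-fold lower, against 32.2%. With the same class weights in both libraries, which leaves Infl_Mono alone and gives no value for Serping1, 1 was higher (Cfb, a log2 ratio of 2.53) and 3 were lower (C1qa, C1qb and C1qc, with log2 ratios of -2.18, -1.45 and -2.31). The median gene itself stood at -0.55 on the log2 scale, and scaling by median-of-ratios factors would add 0.51 to each ratio of this comparison, -0.0014 in COX2i against CTRL and 0.16 in both comparisons of COX2i + 5-AZA. The comparisons share the CTRL library, and those of COX2i + 5-AZA share its library, so they are not independent of each other.

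C1qa stood at 6663 CPM in CTRL, 2294 CPM in IRF3/7, 5946 CPM in COX2i and 5307 CPM in COX2i + 5-AZA. C1qb stood at 4644, 2282, 4932 and 4423 CPM and C1qc at 2189, 728 and, in the celecoxib libraries, 2031 and 1891 CPM. IRF3/7 was the low library for each chain, with log2 ratios to CTRL of -1.54 (-1.55 to -1.52), -1.03 (-1.04 to -1.01) and -1.59 (-1.61 to -1.56). Within macrophages alone the direction turned. C1qa was at 7992 CPM in the 439 IRF3/7 macrophages and 6684 CPM in CTRL, a log2 ratio of 0.26 (0.24 to 0.28), with 0.37 for C1qb and 0.16 for C1qc. In monocytes alone the ratios were -1.85, -1.18 and -1.98, against the 139 CTRL cells that held macrophage markers. Monocytes were 72.6% of IRF3/7 cells against 1.55% in CTRL. Among monocytes and macrophages, Infl_Mono alone had 50 or more cells in IRF3/7 and in CTRL, so class mix and level cannot be told apart for C1q. TAM_H2Ab1, the main macrophage class of IRF3/7 and a smaller one of COX2i + 5-AZA (419 of 4117 macrophages), held C1qa at 8707 and 8237 CPM.

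Cfb showed the largest difference of the members. It stood at 21.8 CPM in CTRL, 1234 CPM in IRF3/7, 56.0 CPM in COX2i and 339 CPM in COX2i + 5-AZA. IRF3/7 was 56.6-fold above CTRL (log2 ratio 5.82, 5.74 to 5.91). The direction was the same in macrophages, at 1357 against 18.8 CPM (6.18, 6.07 to 6.28), and in monocytes, at 1215 against 257 CPM (2.24, 2.03 to 2.46). The macrophage class mix differed, since 385 of the 439 IRF3/7 macrophages were TAM_H2Ab1. That class held Cfb at 1324 CPM in IRF3/7 and at 494 CPM (376 to 637) in its 19 CTRL cells. Class mix and level thus cannot be told apart in the size of the macrophage ratio. After thinning, 80.8% of IRF3/7 macrophages and 79.7% of its monocytes had a Cfb UMI, against 3.00% and 31.3% in CTRL, while 13.0% of IRF3/7 NK cells had one. In Infl_Mono of IRF3/7, 78.6% of cells without a C1q UMI and 81.2% of cells with one had a Cfb UMI. Classes outside monocytes and macrophages also stood higher, at 229 against 5.39 CPM in cDC2 and 99.0 against 1.45 CPM in Myofibrobl. The part of free RNA in those 2 classes was not tested, and NK cells of the same library held 129 CPM.

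C3 stood at 48.2 CPM in CTRL, 438 CPM in IRF3/7, 32.3 CPM in COX2i and 225 CPM in COX2i + 5-AZA. IRF3/7 was 9.10-fold above CTRL (log2 ratio 3.19, 3.12 to 3.25). Unlike Cfb, C3 differed little between the monocytes of the libraries, at 427 CPM in CTRL, 460 CPM in IRF3/7, 342 CPM in COX2i and 434 CPM in COX2i + 5-AZA, and the IRF3/7 ratio in monocytes was 0.11 (-0.06 to 0.28). In macrophages it was at 298 CPM in IRF3/7 against 43.3 CPM in CTRL (2.78, 2.66 to 2.90). There the class mix differed too, since TAM_H2Ab1 held 326 CPM in IRF3/7 and 171 CPM in COX2i + 5-AZA, while the CTRL macrophages were mainly TAM_C1q (25.4 CPM), TAM_Spp1 (129 CPM) and TAM_cycling (15.9 CPM). The 19 TAM_H2Ab1 cells of CTRL held C3 at 560 CPM (434 to 712), above the value of that class in IRF3/7. No macrophage class had at least 50 cells in both IRF3/7 and CTRL, so class mix and level cannot be told apart for the macrophages of this comparison.

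The receptors went different ways in IRF3/7. C5ar1 stood at 800.2 CPM in CTRL, 387.5 CPM in IRF3/7, 844 CPM in COX2i and 655 CPM in COX2i + 5-AZA, with a log2 ratio of -1.05 (-1.08 to -1.01) for IRF3/7. It was the only member at least 2-fold lower in IRF3/7 macrophages (353 against 804 CPM, -1.19, -1.29 to -1.09), where 15.3% of 11631 genes were. In those macrophages Cfb, C3 and Serping1 were the 3 of 9 members at least 2-fold higher, against 7.22% of genes, but Serping1 rested on 5 and 18 UMIs (2.64, 0.85 to 4.12), an interval that goes below 2-fold. C3ar1 stood at 777.5 CPM in CTRL, 608 CPM in IRF3/7, 489.5 CPM in COX2i and 573 CPM in COX2i + 5-AZA. Its ratio was -0.35 over monocytes and macrophages, which median-of-ratios scaling turned to 0.16, and 0.70 (0.65 to 0.75) in macrophages (1263 against 778 CPM). TAM_H2Ab1 held C3ar1 at 1390 CPM in IRF3/7 and 652 CPM in COX2i + 5-AZA, and C5ar1 at 356 and 607 CPM, so the libraries stood in opposite order for the receptors within 1 class.

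Cfp stood at 1286 CPM in CTRL, 582 CPM in IRF3/7, 987.5 CPM in COX2i and 992 CPM in COX2i + 5-AZA, with a log2 ratio of -1.14 (-1.17 to -1.11) for IRF3/7. In macrophages and in monocytes the ratios were -0.80 and -0.68, short of 2-fold. In cDC2, the class with the highest Cfp, it stood at 2921 CPM in CTRL, 1191 CPM in IRF3/7, 2230 CPM in COX2i and 1419 CPM in COX2i + 5-AZA, so the IRF3/7 ratio was -1.29 (-1.37 to -1.22). Serping1 rested on 18, 22, 34 and 107 UMIs in monocytes and macrophages of CTRL, IRF3/7, COX2i and COX2i + 5-AZA. Its log2 ratio of 1.90 (0.94 to 2.89) in IRF3/7 is therefore imprecise. In Myofibrobl it stood at 7.47 CPM in CTRL, 45.5 CPM in IRF3/7, 22.2 CPM in COX2i and 118 CPM in COX2i + 5-AZA, each library above CTRL beyond counting error, with ratios of 2.61, 1.57 and 3.98. Serping1 UMIs were found in 8.12%, 12.8%, 11.7% and 28.75% of Myofibrobl cells in the same order. After thinning, the detection intervals of IRF3/7 and COX2i overlapped that of CTRL in Myofibrobl cells. Fibroblast markers, all 6 in the table, summed to 11132, 8571, 20717 and 20527 CPM in those cells, and their part in the Serping1 values was not tested.

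Infl_Mono cells of IRF3/7, 68.5% of that library, were mixed in C1q. After thinning, 50.1% had no C1q UMI and 24.6% had UMIs of all 3 chains. The 1736 cells without C1q (median 3546 UMIs per cell) and the 854 with all chains (median 3257 UMIs) had similar depth but differed in other members. C3ar1 was at 345 CPM without C1q and 923 CPM with it, and C5ar1 at 366 and 526 CPM. C3 went the other way, at 547 and 331 CPM. Cfb differed less, at 1162 and 1286 CPM, with intervals that did not overlap, and Cfp stood at 596 and 520 CPM. Markers moved with the split, with macrophage markers at 9310 and 18643 CPM and monocyte markers at 20111 and 7040 CPM, so cells with C1q were richer in macrophage genes. Neutrophil markers moved too, at 1916 CPM without C1q and 541 CPM with it, and their part in the C3 values was not tested. C3 was higher in cells without C1q in each of the 8 class and library pairs with at least 50 cells on both sides, among them COX2i + 5-AZA Infl_Mono (901 and 373 CPM, with neutrophil markers at 7319 and 970 CPM and C1qa detection close to that of NK cells) and CTRL TAM_Spp1 (217 and 89.9 CPM). In TAM_Spp1 of COX2i + 5-AZA the intervals overlapped, at 292 CPM (237 to 356) and 218 CPM (186 to 255). C3ar1, C5ar1 and Cfb had no such common direction. In Monocyte_1 of COX2i C3ar1 stood at 527 CPM without C1q and 395 CPM with all chains. In the same way C5ar1 stood at 774 and 618 CPM in TAM_Spp1 of COX2i, and Cfb at 727 and 542 CPM in Monocyte_1 of COX2i + 5-AZA.

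**Figure D4:**
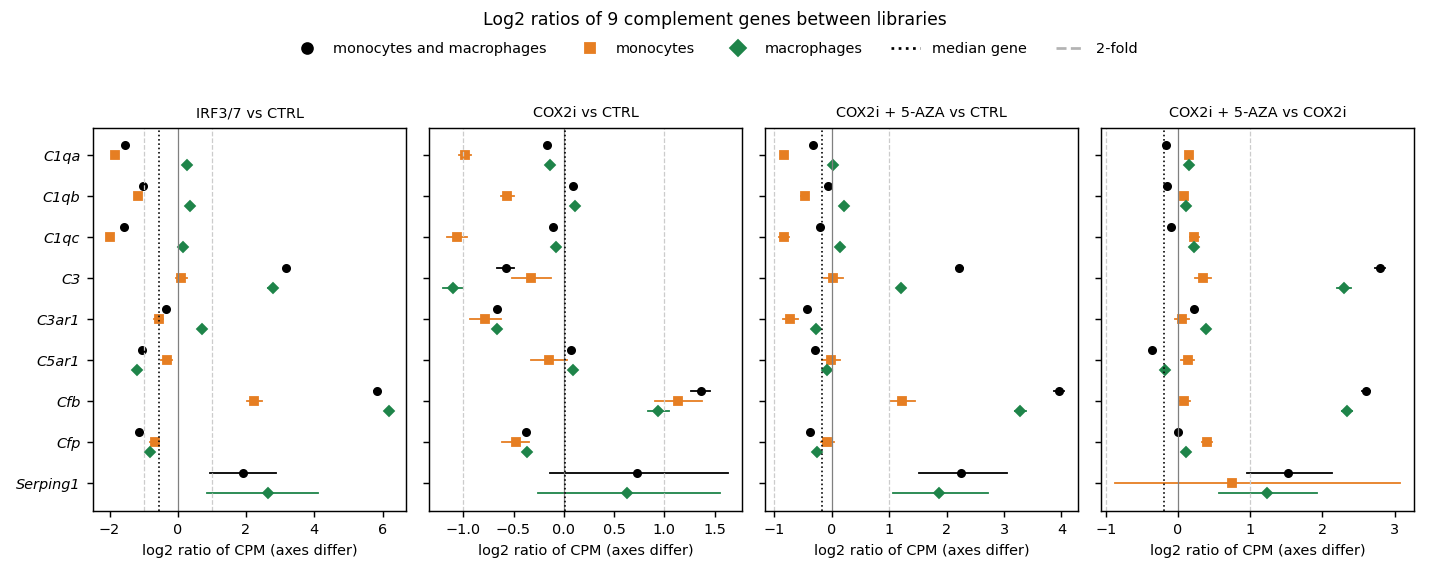
Log2 ratio of CPM for the 9 members in each of the 4 comparisons, in monocytes and macrophages together, in monocytes and in macrophages, with exact 95% intervals for counting error, a dotted line at the median gene and dashed lines at 2-fold. C1q chains lay below 0 in IRF3/7 for monocytes and macrophages together but above 0 in macrophages alone, and Cfb lay above 0 in each comparison and cell group drawn.

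Between COX2i and CTRL Cfb was higher and C3 and C3ar1 were lower, by less than 2-fold for the latter pair over monocytes and macrophages. In monocytes and macrophages Cfb was the 1 of 9 members at least 2-fold higher in COX2i than in CTRL, against 1.93% of 11905 genes, and 0 of 9 were 2-fold lower, against 4.70%. The Cfb ratio was 1.36 (1.27 to 1.46). It was above 0 in each of the 5 monocyte and macrophage classes with at least 50 cells in both libraries, from 0.44 in TAM_C1q to 1.90 in Ctsk_Macro. The levels in TAM_Spp1 were 18.6 CPM in CTRL and 64.4 CPM in COX2i. COX2i NK cells held 58.8 CPM (32.9 to 97.0), but on 15 UMIs over 50 cells, and 1 of 31 thinned NK cells (3.23%, 0.082 to 16.7) had a Cfb UMI, against 10.2% of thinned TAM_Spp1 cells. TAM_C1q (19.2 CPM), TAM_cycling (27.1 CPM) and COX2i macrophages as a whole (36.1 CPM) lay below that NK value. None of these macrophage levels of Cfb was thus shown to lie above background, which was itself poorly measured in COX2i, since only 4% of the 50 NK cells held its UMIs. Infl_Mono, at 544 CPM (487 to 605) in COX2i, lay above that NK interval. C3ar1 was lower in the same 5 of 5 classes, by ratios of -0.91 to -0.53, and its ratio over all of them was -0.67 (-0.69 to -0.65), short of 2-fold. C3 stood at 20.2 against 43.3 CPM in macrophages (a log2 ratio of -1.10), the 1 of 9 members 2-fold lower there, against 4.78% of 11892 genes, while 0 of 9 were 2-fold higher, against 1.85%. Over monocytes and macrophages together the C3 ratio was -0.58, and by class it was -1.47 in TAM_C1q (9.16 and 25.4 CPM), -0.91 in TAM_Spp1, -0.28 in TAM_cycling and 0.09 (-0.17 to 0.35) in Infl_Mono. COX2i NK cells held C3 at 3.92 CPM (0.099 to 21.8) on 1 UMI, an interval that holds the COX2i values of TAM_C1q, TAM_cycling (13.1 CPM) and macrophages as a whole, so these were not shown to lie above background either. Serping1 had a ratio of 0.72 (-0.14 to 1.63) on 34 and 18 UMIs. The C1q chains had ratios of -0.16, 0.09 and -0.11, Cfp of -0.38 and C5ar1 of 0.08. Macrophage markers summed to 36819 CPM in CTRL macrophages and 16378 CPM in COX2i macrophages, and their part in these ratios was not tested.

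Celecoxib together with 5-azacytidine was set against CTRL next, and C3, Cfb and Serping1 were higher. In monocytes and macrophages 3 of 9 members were at least 2-fold higher, against 5.65% of 12001 genes, and 0 were 2-fold lower, against 11.3%. The ratios were 3.96 (3.88 to 4.05) for Cfb, 2.22 (2.16 to 2.28) for C3 and 2.25 (1.52 to 3.06) for Serping1. With the same class weights in both libraries they were 2.28, 0.90 and 1.79, so C3 was then short of 2-fold. The same 3 members passed in macrophages alone, where 4.25% of 11899 genes were 2-fold higher and 8.89% lower, with 183 against 18.8 CPM for Cfb and 99.6 against 43.3 CPM for C3. Cfb was above 0 in each of the 5 classes compared, by 1.38 in Macro to 3.68 in TAM_cycling, and C3 by 0.57 in Infl_Mono to 2.16 in TAM_cycling. In TAM_C1q of COX2i + 5-AZA, however, Cfb stood at 81.3 CPM, within the interval of its NK cells (74.9 CPM, 63.1 to 88.3), and C3 at 46.2 CPM beside 45.4 CPM in NK cells, so neither was shown to lie above background there. After thinning, 11.8% of those TAM_C1q cells had a Cfb UMI and 8.13% a C3 UMI, beside 6.87% and 4.47% of NK cells, with intervals that overlapped. C1qa, C1qb and C1qc had ratios of -0.33, -0.07 and -0.21 over monocytes and macrophages and of 0.02, 0.22 and 0.14 in macrophages, and that of C1qb turned to 0.09 under median-of-ratios scaling. C3ar1 was below 0 in 5 of 5 classes, at -1.14 to -0.05. C5ar1 and Cfp had ratios of -0.29 and -0.38, the latter with -1.04 in cDC2.

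The last comparison, COX2i + 5-AZA against COX2i, asked what 5-azacytidine added to celecoxib. Again 3 of 9 members, C3, Cfb and Serping1, were at least 2-fold higher in monocytes and macrophages, against 6.16% of 11940 genes, and 0 were 2-fold lower, against 9.77%. With the same class weights in both libraries 0 of 9 were 2-fold higher, with log2 ratios of 0.79 for C3, 0.42 for Cfb and 0.74 for Serping1. The log2 ratios were 2.80 (2.73 to 2.87) for C3, 2.60 (2.55 to 2.65) for Cfb and 1.52 (0.96 to 2.13) for Serping1. In macrophages alone the same 3 members passed, where 4.89% of 11834 genes were 2-fold higher and 5.92% lower, but the COX2i macrophage levels of Cfb and C3 were not shown to lie above those of NK cells, and the Serping1 ratio was 1.24 (0.57 to 1.93). C3 was above 0 in 5 of 5 monocyte and macrophage classes, from 0.40 in Monocyte_1 to 2.44 in TAM_cycling, and was at 46.2 against 9.16 CPM in TAM_C1q. NK cells of the same libraries held C3 at 45.4 and 3.92 CPM, so the TAM_C1q value of COX2i + 5-AZA was at the level of its NK cells and is not read as expression. The monocyte classes differed less. In Monocyte_1 Cfb stood at 579 and 582 CPM (-0.01, -0.10 to 0.09) and C3 at 388 and 293 CPM. In Infl_Mono Cfb stood at 731 and 544 CPM (0.43, 0.26 to 0.60) and C3 at 658 and 472 CPM (0.48, 0.30 to 0.66). In macrophages Cfb stood at 183 against 36.1 CPM, the latter below the NK value of its library, so the size of that difference is not read, and 21.5% against 5.16% of thinned macrophages had a Cfb UMI, beside 6.87% and 3.23% of NK cells. Monocytes held 46.7% of COX2i + 5-AZA cells and 6.11% of COX2i cells. The C1q ratios were -0.16, -0.16 and -0.10 and lay at or above 0 under median-of-ratios scaling, at 0.00046, 0.0075 and 0.06.

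Of 50 other complement genes listed for comparison, 32 were in the table. In IRF3/7 against CTRL 27 of them were tested in monocytes and macrophages, 6 were 2-fold higher and 8 lower, beside 9.16% and 32.2% of all genes, with a median log2 ratio of -0.24 beside -0.55 for all genes. In COX2i 0 of 28 were higher and 4 lower, beside 1.93% and 4.70% of all genes. In COX2i + 5-AZA 8 of 29 were higher and 5 lower against CTRL (5.65% and 11.3% of all genes), and 8 of 28 were higher and 0 lower against COX2i (6.16% and 9.77%). C4b, which joins C2 in the classical C3 convertase, stood at 76.8 CPM in CTRL, 243 CPM in IRF3/7, 75.9 CPM in COX2i and 215 CPM in COX2i + 5-AZA, with ratios to CTRL of 1.66 in IRF3/7 and 1.49 in COX2i + 5-AZA. In macrophages alone the C4b ratios were 2.25 and 0.84, the latter short of 2-fold. C2, the neighbour of Cfb, stood at 1.50, 6.83, 0.816 and 6.20 CPM in the same order of libraries, with ratios of 2.19 and 2.05. C1ra, a protease of C1, had a ratio of 1.69 in COX2i + 5-AZA. C4b, C1ra and Cd59a each have a related copy in the mouse genome, and probes shared with it were not checked, so their values are uncertain.

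Cd59a, a block on the membrane attack complex, had ratios of -4.24 in IRF3/7 and -1.14 in COX2i + 5-AZA, which were -1.89 and -0.63 in macrophages alone. Vsig4, a macrophage receptor for C3b, stood at 8.45 CPM in CTRL, 0 UMIs in IRF3/7, 1.10 CPM in COX2i and 0.658 CPM in COX2i + 5-AZA. Its log2 ratios were -2.94 in COX2i and -3.68 in COX2i + 5-AZA, and in IRF3/7 at most -5.65, with the 0 set to a floor of 3 UMIs, or at most -2.78 in the fewer UMIs of macrophages alone. The lectins Fcna and Colec12 had ratios of -5.01 and -3.09 in IRF3/7, which were -2.43 and, on 3 UMIs, -3.61 in macrophages alone. Colec12 had a ratio of -1.21 in COX2i + 5-AZA and of -0.88 in its macrophages. Itgax, a chain of complement receptor CR4, had ratios of 1.76 in IRF3/7 and 2.26 in COX2i + 5-AZA against CTRL, and of 3.04 and 1.99 in macrophages alone. Clu, an inhibitor of the terminal pathway, and C1qbp had ratios of 2.52 and -1.92 in IRF3/7. In macrophages alone Clu stood at 59.0 against 3.00 CPM, while C1qbp had a ratio of -0.17 (-0.40 to 0.05), short of 2-fold.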

How the data were processed

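The authors deposited unnormalised UMI counts for 34447 cells and 12584 genes, with a table naming each cell's library and class (17 classes). The submitters' processing notes name Cell Ranger 7.1.0 and mm10. Per the study's methods, fixed cells were hybridised with probe pairs, cells with few genes or much mitochondrial or ribosomal RNA were removed, genes detected in too few cells of any of the integrated experiments were dropped, and classes came from clusters of those experiments together. The probes read part of each transcript, so levels of different genes are not compared.

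Counts were summed per library and class with Python 3.11.15 and scipy 1.17.1. In each of the 34447 cells the UMI sum equalled the one in the cell table. No doublet caller was run. Alternatives were median-of-ratios scaling, a 1.5-fold rule, no minimum of UMIs, cells with more than 2000 genes, thinning to 2000 UMIs, leaving out the 5% of cells with most UMIs per class and library, the mean of single-cell CPM, the same class weights in both libraries, all cells, macrophages alone and leaving out cells with a shared droplet barcode. A count of 0 was set to 3 UMIs for a fold bound. All 9 members are named, and other complement genes past 2-fold in a comparison with at least 200 UMIs. Some genes that this rule or the ranking of like genes picks are not reported here. The members and lists were chosen with earlier results of these data known. The ratio scripts were tested on simulated data.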

Additional observations from a re-analysis of the deposited data

How the results depend on the processing

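With 1 library per group no spread between tumours was measured, so each ratio compares 2 libraries. No paired analysis was possible because each group had 1 library, and no replicate could be left out. The count of members at least 2-fold higher in IRF3/7 than in CTRL was 3 and came to 1 with the same class weights in both libraries, which kept only Infl_Mono and gave no value for Serping1. The count at least 2-fold lower was 5 and came to 2 with median-of-ratios scaling, 3 with cells of more than 2000 genes, 3 with the same class weights and 1 in macrophages alone, where C1qa, C1qb and C1qc turned to 0.26, 0.37 and 0.16. In COX2i against CTRL the count higher was 1 and came to 2 over all cells, 0 in macrophages alone and 2 at 1.5-fold, and the count lower was 0 and came to 1 in macrophages alone and 1 at 1.5-fold. In COX2i + 5-AZA against COX2i the count higher was 3 and came to 0 with the same class weights. The cause was not tested, other than by the construction of each alternative. Of 36 member ratios, macrophages alone changed the sign of 10 and moved 7 by over 1.5-fold, the same class weights changed 4 and moved 11 of 35, all cells changed 4 and moved 3, median-of-ratios scaling changed 5 and moved 0, thinning to 2000 UMIs changed 2 and moved 3, the mean of single-cell CPM changed 2 and moved 1, cells with more than 2000 genes changed 0 and moved 1, and leaving out the 5% of cells with most UMIs changed 0 and moved 0. Leaving out cells whose droplet barcode recurs in another library, an alternative chosen after seeing the data, changed the sign of 0 and moved 0 by over 1.5-fold. Depth limited Serping1 most, with 18 UMIs in CTRL monocytes and macrophages.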
